A study of Rattus norvegicus with 24 samples.

Results

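Primary rat hepatocytes exposed to the designer drug MeOPP (methoxyphenylpiperazine) were compared with their own solvent controls. The changes are read from 6 of the 24 arrays of the series: the 3 samples titled as treated with MeOPP and the 3 controls whose titles name those samples. Treated cells received 522 µM MeOPP for 24 h, which the labels call the EC20, a concentration with a 20 percent effect. Controls received 0.1 percent DMSO. All cells were primary rat hepatocytes in collagen sandwich culture, in which the cell layer lies between films of collagen. The labels give no genotype, strain, sex or age of the animals. Nor do they tell whether replicates were separate animals or cultures. The p-values therefore measure only how far the arrays of the series spread, and that spread may be technical. The other 18 arrays hold BZP, TFMPP and MDBP, each with its own DMSO controls, and they also enter the estimate of the spread.

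Hepatocytes make bile acids, blood proteins and glucose, break down amino acids and clear foreign compounds, and they lose part of this expression in culture. When sterol falls in the endoplasmic reticulum, the transcription factor SREBP2 turns on the enzymes of cholesterol synthesis, while SREBP1 mainly serves fatty acid synthesis. Another pair of factors, TFEB and TFE3, turns on genes of lysosomes and of nutrient sensing when lysosomes are stressed. MeOPP is a phenylpiperazine, a class of psychoactive amines sold as designer drugs.

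The arrays carried strong hepatocyte signal. All 15 measured hepatocyte markers had a mean log2 value of at least 5 over the 24 arrays, and albumin (Alb) stood at 14.05 to 14.07 on every MeOPP and control array, the top of the value range. Of these markers 6 fell (40%, against 4.52% of all genes). The summed log2 level was 171.76 to 177.83 in the controls and 163.71 to 169.98 with MeOPP, without overlap. For markers of other liver cells the sums of the groups overlapped: 84.84 to 99.82 against 85.27 to 96.00 for 16 Kupffer cell and leukocyte genes, 75.50 to 84.61 against 75.77 to 84.68 for 16 stellate cell genes, 56.84 to 66.83 against 60.96 to 66.96 for 11 endothelial genes and 26.88 to 27.85 against 27.45 to 27.96 for 7 cholangiocyte genes, controls first. Among these genes, Clec4f and Col3a1 fell and Dcn rose. Below 0 lay 14 of the 16 Kupffer cell and leukocyte genes (median -0.12) and 14 of the 15 hepatocyte markers (median -0.29). So did 7 of 16 stellate cell, 4 of 11 endothelial and 2 of 7 cholangiocyte genes. The Kupffer cell and leukocyte sums went from 84.84, 87.20 and 99.82 to 85.27, 85.63 and 96.00 in pairs 1, 2 and 3. Calls among hepatocyte markers numbered 3, 4 and 6 without pairs 1, 2 and 3, Clec4f was called only without pair 2, Col3a1 only without pair 3 and Dcn in none of these fits. Means under 5 were found for 7 of 16 Kupffer cell, 9 of 16 stellate cell, 4 of 11 endothelial and 6 of 7 cholangiocyte genes. The means of Krt7, Krt19, Cftr, Cldn4, Adgre1, Ptprc, Lum, Ngfr and Vwf were among them. In bulk samples, fewer cells of a type and less RNA per cell cannot be told apart. The part of these markers in the results below was not tested.

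MeOPP changed 1865 of 31042 probe sets (6.01%), 692 higher (2.23%) and 1173 lower (3.78%), in limma at a Benjamini-Hochberg adjusted p under 0.05. A gene was read from its brightest probe set, and of 14217 genes 1134 changed (7.98%), 491 higher (3.45%) and 643 lower (4.52%). The large changes were mostly falls: 23 genes rose at least 2-fold (0.162%) and 120 fell at least 2-fold (0.844%). The median change over all genes was 0.03 on the log2 scale. All 1134 called genes moved the same way in the 3 pairs, from which they were called, so this is no separate support. The values of the groups did not overlap for 710 of them, 315 higher and 395 lower, while over all genes 1136 (7.99%) lay wholly higher and 854 (6.01%) wholly lower. The calls rest on the pairing. Without the pair terms limma called 12 probe sets, 5 higher and 7 lower, and with the 12 DMSO arrays of the series joined as 1 control group, also without pair terms, it called 796. Leaving out pair 1, 2 or 3 gave 819, 834 and 1226 calls.

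**Figure D1:**
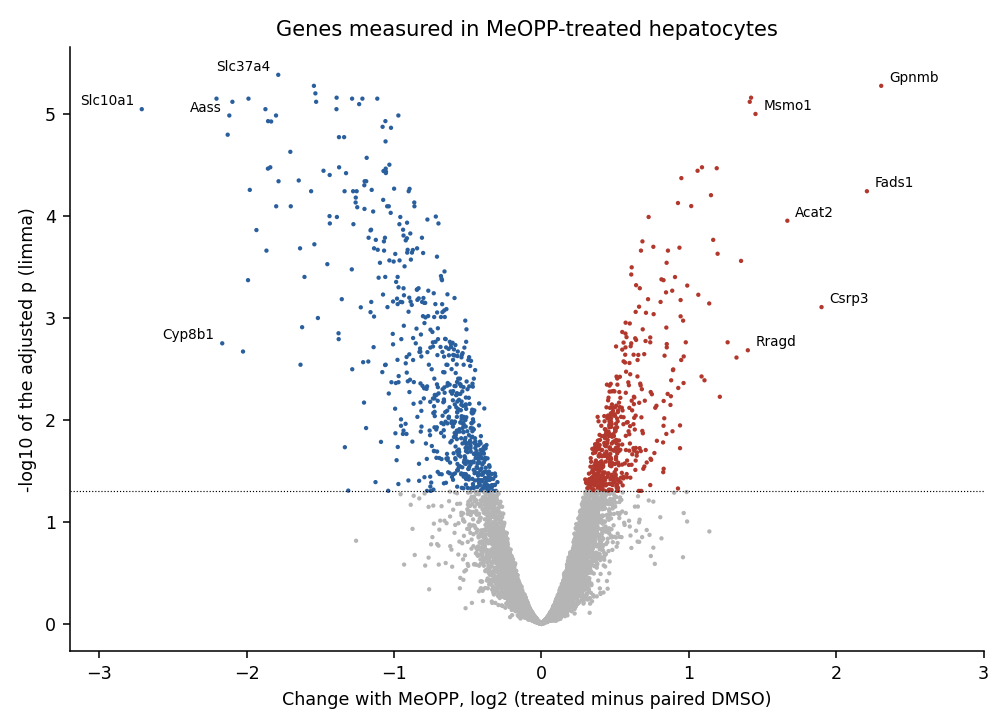
Change with MeOPP for 14217 genes on the log2 scale (treated minus paired DMSO, horizontal) against -log10 of the limma adjusted p (vertical). Red points rose, blue points fell, grey points did not pass the adjusted p of 0.05 (dotted line). The falls reach further from 0 than the rises, with Slc10a1 at -2.71 and Gpnmb at 2.31 at the ends.

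The 3 pairs differed in size of response. Within pair 1, 50 genes were at least 2-fold higher and 163 at least 2-fold lower; within pair 2 these counts were 115 and 186, and within pair 3 they were 14 and 122. Over the called genes the median size of change was 0.61 in pairs 1 and 2 and 0.49 in pair 3. Probe sets of Bacillus control transcripts on the array moved too. Their median change over 12 probe sets was -0.68, -0.21 and 0.01 in pairs 1, 2 and 3, and limma called 0 of the 57 control probe sets (1 at an unadjusted p under 0.05). The 3' to 5' difference, a sign of RNA quality, changed by -0.24, -0.22 and 0.05 for beta-actin, by -0.06, -0.02 and 0.00 for GAPDH, and by -0.05 to 0.02 for hexokinase. Their part in the results was not tested.

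Gpnmb, a glycoprotein of lysosomes and melanosomes, had the largest rise. Its log2 values were 7.37, 7.29 and 7.68 in the controls and 10.06, 9.79 and 9.41 with MeOPP. Every treated array lay above every control, and the rise was 2.31 ± 0.17 (SE, n = 3 pairs; 4.95-fold; limma adjusted p = 5.27e-06). Gpnmb was the only one of the 30 largest changes that limma also called without the pair terms (adjusted p = 3.4e-05). Fads1, the delta-5 fatty acid desaturase, stood at 4.99, 4.04 and 4.77 in the controls and at 7.33, 6.77 and 6.32 with MeOPP. The groups lay well apart and Fads1 rose by 2.21 ± 0.25 (limma adjusted p = 5.7e-05). Csrp3, a LIM protein best known from muscle, had control values of 4.69, 5.24 and 5.57 and treated values of 6.45, 7.72 and 7.01. It was dim in the controls, did not overlap between the groups and rose by 1.90 ± 0.29 (limma adjusted p = 0.000781). Rab30, a small GTPase of the Golgi apparatus, rose by 1.42 ± 0.11 with both of its probe sets called. Others among the 15 largest rises were Sfn, the 14-3-3 protein sigma, by 1.32, Stx3, a syntaxin of membrane fusion, by 1.20, and Rnf145, a sterol-responsive ubiquitin ligase, by 1.17.

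**Figure D2:**
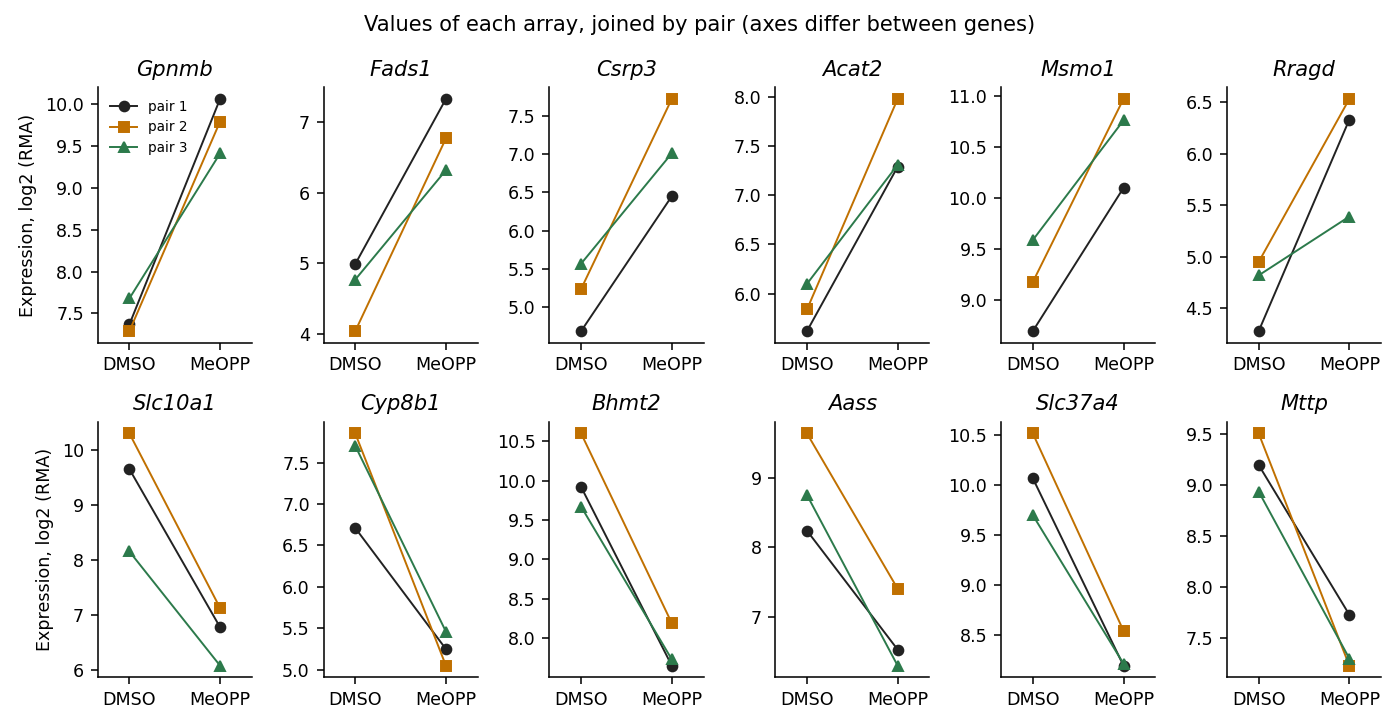
Log2 RMA values of 12 genes on the 6 arrays, with lines joining each DMSO control (left of each panel) to its MeOPP sample (right) and one marker per pair. Axes differ between panels. Gpnmb, Fads1, Csrp3, Acat2, Msmo1 and Rragd rise in every pair and Slc10a1, Cyp8b1, Bhmt2, Aass, Slc37a4 and Mttp fall in every pair, and Rragd rises least in pair 3.

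Cholesterol synthesis was the list with the highest median. All 19 measured enzymes lay above 0 and 12 passed the test (63.2%, against 3.45% of all genes higher), with a median of 0.55 against 0.03 over all genes. Acat2, which joins acetyl groups at the start of the pathway, stood at 5.62, 5.84 and 6.10 in the controls and 7.29, 7.98 and 7.31 with MeOPP. The groups did not overlap and Acat2 rose by 1.67 ± 0.20 (3.18-fold; limma adjusted p = 0.000111). Msmo1, the sterol methyl oxidase, had control values of 8.70, 9.18 and 9.59 and treated values of 10.10, 10.97 and 10.76. Msmo1 was again higher on every treated array, by 1.45 ± 0.13 (limma adjusted p = 9.95e-06). Idi1, the isomerase that makes dimethylallyl diphosphate, went from 8.19, 9.16 and 8.99 to 9.72, 10.81 and 10.06, a rise of 1.41 ± 0.12 (limma adjusted p = 7.56e-06). Pair 2 was the highest of the treated arrays for all 3 enzymes.

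The rises ran along the pathway. Fdps, which makes farnesyl diphosphate, rose by 1.06 ± 0.11, Fdft1, the squalene synthase, by 1.26 ± 0.21, Sqle, the squalene epoxidase, by 1.19 ± 0.12 and Cyp51, which removes a methyl group from lanosterol, by 1.15 ± 0.13. Smaller rises were those of Lss at 0.88, Sc5d at 0.59, Mvd at 0.55, Pmvk at 0.51 and Lbr at 0.50. Of the 7 members that did not pass, Nsdhl had a change of 0.55 (limma adjusted p = 0.0514) and Dhcr7 one of 0.36, with 1.24 in pair 2 and -0.16 and -0.01 in pairs 1 and 3. The list median was 0.59, 1.00 and 0.49 in pairs 1, 2 and 3. Without those pairs in turn 8, 7 and 11 enzymes were called, and Mvd and Lbr were called in none of these fits.

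The start regions of 3 of these enzymes are shown because CCAAT, the box bound by the factor NF-Y that works beside SREBP, stood in them on either strand. They are RefSeq windows of the GRCr8 build, from 250 bases before to 50 bases after the start of the gene, with CCAAT or its complement ATTGG in capitals. The windows and the motif were chosen after the values were seen. Idi1 is at chr17:66547475-66547774 (minus strand), Fdps at chr2:176804767-176805066 (minus strand) and Msmo1 at chr16:29746863-29747162 (plus strand).
Idi1: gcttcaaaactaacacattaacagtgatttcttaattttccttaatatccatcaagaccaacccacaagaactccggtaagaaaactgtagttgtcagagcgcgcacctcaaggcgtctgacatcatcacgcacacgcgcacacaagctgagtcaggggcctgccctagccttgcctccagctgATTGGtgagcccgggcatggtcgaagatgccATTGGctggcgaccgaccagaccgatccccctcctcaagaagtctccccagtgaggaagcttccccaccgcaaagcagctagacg
Fdps: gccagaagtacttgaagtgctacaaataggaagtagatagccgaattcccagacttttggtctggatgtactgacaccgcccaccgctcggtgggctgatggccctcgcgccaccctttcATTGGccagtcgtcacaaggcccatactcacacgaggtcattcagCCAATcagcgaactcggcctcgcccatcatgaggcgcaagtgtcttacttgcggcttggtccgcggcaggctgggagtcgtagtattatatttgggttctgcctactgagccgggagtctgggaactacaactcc
Msmo1: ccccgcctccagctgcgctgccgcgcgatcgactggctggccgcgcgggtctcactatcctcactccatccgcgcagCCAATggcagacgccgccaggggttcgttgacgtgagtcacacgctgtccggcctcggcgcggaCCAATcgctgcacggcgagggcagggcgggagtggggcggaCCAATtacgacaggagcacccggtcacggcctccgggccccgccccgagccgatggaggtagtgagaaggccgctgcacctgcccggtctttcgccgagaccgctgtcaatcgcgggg
The matches began 66 and 35 bases before the start of Idi1, 130 and 85 before that of Fdps, and 173, 109 and 68 before that of Msmo1. Of the 12 enzymes that rose, 9 had a single window and 7 of those held CCAAT (77.8%), while 12549 of all 33469 windows did (37.5%). The letters TCACNCCAC, a form of the sterol regulatory element, were in 0 of the 9 windows and in 374 of all windows (1.12%). A match of letters is a description and not a binding site.

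Among regulators of sterol level, 4 of 16 rose (25%, against 3.45% of all genes) and 2 fell (12.5%, against 4.52%), with a median of 0.20. Stard4, a sterol carrier, rose by 0.99 ± 0.14, and Insig1, which holds SREBP in the endoplasmic reticulum when sterol is high, by 0.85 ± 0.14. Npc2, which hands cholesterol out of lysosomes, rose by 0.73 ± 0.09, and Mylip, a sterol-responsive ubiquitin ligase, by 0.64 ± 0.16, a call lost without pair 2 or 3. Lcat, the plasma enzyme that esterifies cholesterol, changed by -0.94 ± 0.14 and Abcg5, a canalicular sterol pump, by -0.64 ± 0.16. Without pair 1 or 2, Abcg5 was not called, and its change in pair 3 was -0.02. Mylip and Abcg5 were dim, at means of 3.51 and 3.97, and the groups of Mylip overlapped. Srebf2, which encodes SREBP2, stood at 6.69, 6.63 and 6.84 in the controls and 6.96, 7.25 and 7.14 with MeOPP. The list had 4, 3 and 3 rises and 1, 1 and 2 falls without pairs 1, 2 and 3. For Srebf2 the groups did not overlap, but the change of 0.40 ± 0.15 missed the threshold (limma adjusted p = 0.147).

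Srebf1, the gene of SREBP1, did pass. It went from 7.18, 7.13 and 7.54 to 8.08, 8.26 and 8.05, with every treated array above the controls, and rose by 0.85 ± 0.12 (limma adjusted p = 0.00056) through 1 of its 2 probe sets. In all 7 of 26 genes of fatty acid and triglyceride synthesis rose (26.9%, against 3.45% of all genes), with a median of 0.20. Another 2 fell (7.69%, against 4.52% of all genes). Beside Srebf1 and Fads1 the rises were Fasn, the fatty acid synthase, at 1.21 ± 0.24, and Acsl3, an acyl-CoA synthetase, at 0.97 ± 0.17. Pnpla3, a lipid droplet enzyme, rose by 0.89 ± 0.20, Scd, the stearoyl-CoA desaturase, by 0.70 ± 0.18, and Fads2, the delta-6 desaturase, by 0.53 ± 0.10. Elovl2, an elongase of polyunsaturated fatty acids, moved the other way at -1.05 ± 0.12, as did Lpin2, a phosphatidate phosphatase, at -0.68 ± 0.15. Acaca and Acly, which supply malonyl-CoA and acetyl-CoA, had changes of -0.25 (limma adjusted p = 0.27) and -0.05 (limma adjusted p = 0.884). Fasn lost its call without pair 2 (limma adjusted p = 0.11), and Pnpla3 and Scd did as well. Rises in the list numbered 6, 4 and 8 without pairs 1, 2 and 3, and Lpin2 was called only without pair 1.

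Fatty acid oxidation and the targets of PPAR alpha, the fatty acid receptor, ran lower. Of 24 genes 13 fell (54.2%, against 4.52% of all genes), with a median of -0.58. Cyp4a3, a fatty acid omega-hydroxylase, stood at 9.62, 9.12 and 10.12 in the controls and 7.61, 7.13 and 8.56 with MeOPP. The groups lay apart and the change was -1.85 ± 0.17 (3.62-fold lower; limma adjusted p = 1.17e-05). Cyp4a1 changed by -1.62 ± 0.26, Vnn1, the pantetheinase vanin, by -1.48 ± 0.16, and Acaa2, a mitochondrial thiolase, by -1.06 ± 0.11. Decr1, Acadvl and Slc25a20, all of mitochondrial fatty acid oxidation or transport, changed by -0.87, -0.67 and -0.65. Cpt1a, the gate of the carnitine shuttle, changed by -0.53 ± 0.13 and was not called without pair 1 or pair 2. Falls in the list numbered 7, 9 and 12 without pairs 1, 2 and 3. In the peroxisome list 3 of 18 fell (16.7%), with a median of -0.11: Phyh, the phytanic acid hydroxylase, at -0.94, Hacl1 at -0.81 and Pex11a at -0.77. Hacl1 was not called without pair 1 or pair 2.

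Lipid droplet genes moved both ways, with 3 of 17 higher and 3 lower (17.6% each) and a median of -0.02. Over all genes 3.45% were higher and 4.52% lower. Plin3 rose by 0.69 ± 0.11, and Plin5, the perilipin of oxidative tissue, changed by -0.80 ± 0.16. Plin2, the main perilipin of hepatocytes, had a change of 0.17 ± 0.14 (limma adjusted p = 0.591). Without pairs 1, 2 and 3 the droplet list had 1, 1 and 2 rises and 1, 3 and 2 falls. In the phospholipid and sphingolipid list 3 of 17 rose (17.6%): Ugcg, the glucosylceramide synthase, by 0.78, Pla2g15, the lysosomal phospholipase A2, by 0.50, and Degs1, a ceramide desaturase, by 0.36. None of these 3 was called without pair 1 or without pair 2, and all 3 were called without pair 3.

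Genes of bile acid handling held the deepest fall. Slc10a1, the sodium-dependent carrier that takes bile acids up from blood, stood at 9.65, 10.30 and 8.15 in the controls and at 6.77, 7.12 and 6.07 with MeOPP. The control of pair 3 was the lowest of the controls, yet no treated array reached it, and Slc10a1 fell by 2.71 ± 0.24 (6.55-fold; limma adjusted p = 8.93e-06). Cyp8b1, the hydroxylase that makes cholic acid, went from 6.71, 7.85 and 7.70 to 5.25, 5.05 and 5.46, without overlap, at -2.17 ± 0.36 (limma adjusted p = 0.00177). Acox2, the peroxisomal oxidase of the bile acid side chain, went from 7.31, 7.60 and 6.99 to 5.14, 5.29 and 5.17. It was low on all treated arrays and changed by -2.10 ± 0.18 (limma adjusted p = 7.56e-06).

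Of 25 genes in the bile acid list, 10 fell (40%, against 4.52% of all genes) and 1 rose (4%, near the 3.45% of all genes), with a median of -0.50. Abcb11, which pumps bile salts into bile, changed by -1.39 ± 0.12, Sult2a6, a bile acid sulfotransferase, by -2.02 ± 0.35, and Nr1h4, the bile acid receptor FXR, by -0.71 ± 0.09. The groups did not overlap for these 3 genes. Cyp7a1, which starts and limits bile acid synthesis, had control values of 5.21, 5.21 and 4.27 and treated values of 3.72, 3.54 and 3.43. It changed by -1.33 ± 0.32 (limma adjusted p = 0.0185), with the call lost without pair 1 (adjusted p = 0.131) or pair 2 (adjusted p = 0.16). The member that rose was Abcc2, a canalicular pump for conjugates, by 0.55 ± 0.13, which was not called without pair 1 or pair 2. Falls in the list numbered 6, 8 and 9 without pairs 1, 2 and 3.

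Amino acid breakdown was the list with the lowest median, -0.82, and with pair medians of -0.84, -0.98 and -0.55. All 39 measured enzymes lay below 0 and 29 passed the test (74.4%, against 4.52% of all genes lower). Bhmt2, which methylates homocysteine, stood at 9.92, 10.60 and 9.67 in the controls and 7.65, 8.19 and 7.73 with MeOPP, a change of -2.20 ± 0.18 (4.61-fold lower; limma adjusted p = 7.04e-06). Aass, the first enzyme of lysine breakdown, went from 8.24, 9.63 and 8.75 to 6.54, 7.41 and 6.31, a change of -2.12 ± 0.19 (limma adjusted p = 1.03e-05). In both genes every treated array lay below every control. Bhmt, the betaine-homocysteine methyltransferase, changed by -1.99 ± 0.28, and its first control array (6.98) lay well below the others (9.34 and 8.43).

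The falls covered several routes. Uroc1, Ftcd and Hal, which degrade histidine, changed by -1.98, -1.84 and -1.06. Kynu, Haao and Aadat, of tryptophan breakdown, changed by -1.26, -1.06 and -1.03. Dmgdh, Sardh and Gnmt, which handle methyl groups through glycine, changed by -1.34, -1.14 and -0.98. Of 9 urea cycle genes 4 fell (44.4%, against 4.52% of all genes), with a median of -0.64. Arg1, the arginase, went from 12.51, 12.64 and 12.39 to 11.33, 11.65 and 11.35, a change of -1.07 ± 0.12 (limma adjusted p = 6.93e-05). Its treated arrays lay close together and below all controls. Nags, which makes the activator of the cycle, changed by -0.79, the ornithine carrier Slc25a15 by -0.65 and the carbamoyl phosphate synthetase Cps1 by -0.64. The call of Cps1 was lost without pair 1, and that of Slc25a15 without pair 1 or 2, so that falls in the urea cycle numbered 2, 3 and 5 without pairs 1, 2 and 3.

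In the list of gluconeogenesis, glycogen and glycolysis control, 10 of 22 genes fell (45.5%, against 4.52% of all genes), with a median of -0.44. Slc37a4, the carrier of glucose 6-phosphate into the endoplasmic reticulum, had the lowest p of any gene. Its controls stood at 10.07, 10.52 and 9.70 and its treated arrays at 8.19, 8.54 and 8.21, far apart, a change of -1.78 ± 0.12 (3.45-fold lower; limma adjusted p = 4.11e-06). Gys2, which makes liver glycogen, changed by -1.93 ± 0.24, Fbp1, the fructose bisphosphatase, by -1.83 ± 0.17, Gpd1, the glycerol phosphate dehydrogenase, by -1.21 ± 0.10 and Pc, the pyruvate carboxylase, by -1.01 ± 0.17. Pck1, which makes phosphoenolpyruvate, changed by -0.51 ± 0.11 and was not called without pair 1 or pair 2. Falls in the list numbered 6, 7 and 9 without the pairs in turn.

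Among 22 cytochromes P450 of families 2 and 3, 11 fell (50%, against 4.52% of all genes), with a median of -0.69. Cyp2a1, a steroid hydroxylase, went from 8.78, 9.11 and 8.46 to 7.38, 6.99 and 6.42, without overlap, a change of -1.85 ± 0.19 (limma adjusted p = 3.42e-05). Cyp2e1, which oxidises ethanol and other small molecules, went from 11.61, 11.77 and 11.43 to 10.00, 9.69 and 10.29 and changed by -1.61 ± 0.23 (limma adjusted p = 0.000395). Cyp2c11, the male-type steroid hydroxylase, changed by -1.13, -1.23 and -0.12 in the 3 pairs, and its groups overlapped. The list median was -0.68, -0.83 and -0.15 in pairs 1, 2 and 3, the widest spread among the falling lists of the plot of list medians by pair. Leaving out pairs 1, 2 and 3 gave 6, 7 and 12 calls. Near-identical members of this family may share probes, so single members are uncertain.

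Receptors and targets of foreign compounds followed. Of 17 genes of CAR and PXR, 5 fell (29.4%, against 4.52% of all genes) and 1 rose (5.88%, near the 3.45% of all genes). Their median was -0.34. Nr1i2, the gene of PXR, changed by -0.60 ± 0.10, and Nr1i3, the gene of CAR, by -1.31 ± 0.37 (limma adjusted p = 0.0493), a call lost without each of the 3 pairs. Falls numbered 2, 3 and 4 without pairs 1, 2 and 3, and Abcc2, which rose, was called only without pair 3. Aldh1a1, a retinal dehydrogenase, changed by -1.28 ± 0.14. Of 27 conjugating enzymes 11 fell (40.7%, against 4.52% of all genes), with a median of -0.44. Among them were Gsta3, a glutathione transferase, at -1.80, and Acsm5 and Acsm1, the medium-chain acyl-CoA synthetases, at -1.87 and -1.53. Glyat, which joins acids to glycine, changed by -1.38 and Sult1a1, the phenol sulfotransferase, by -1.37. In the list of the aryl hydrocarbon receptor 1 of 10 rose (10%): Nqo1, a quinone reductase also under NRF2, by 0.74 ± 0.12 with overlapping groups. Cyp1a1, the main target of that receptor, stood at 7.95, 9.78 and 9.10 in the controls and 9.97, 10.47 and 9.82 with MeOPP. Its change of 1.14 ± 0.40 missed the threshold (limma adjusted p = 0.124) although the groups did not overlap.

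Genes of secreted blood proteins were described by 3 lists, of lipoproteins, of complement and coagulation, and of the acute phase. Mttp, which loads lipid onto apolipoprotein B, stood at 9.20, 9.51 and 8.94 in the controls and 7.73, 7.23 and 7.30 with MeOPP, a change of -1.80 ± 0.16 (3.48-fold lower; limma adjusted p = 1.03e-05). Apob itself went from 11.36, 11.86 and 10.52 to 10.08, 10.46 and 9.02, a change of -1.39 ± 0.11 (limma adjusted p = 6.89e-06). Both genes lay lower on every treated array. In this list of apolipoproteins and lipoprotein assembly 7 of 17 fell (41.2%, against 4.52% of all genes), with a median of -0.28. Apoa1 had a change of -0.12 (limma adjusted p = 0.509). Of 31 genes of complement and coagulation 19 fell (61.3%, against 4.52% of all genes), with a median of -0.53. They were led by Mbl2, the mannose-binding lectin, at -1.35 ± 0.20, complement C5 at -1.12 ± 0.14 and Serpinf2, the plasmin inhibitor, at -1.03 ± 0.11. Only 6 of the 31 lay wholly lower with MeOPP (6.01% of all genes did), and the groups of C5 overlapped. Leaving out pairs 1, 2 and 3 gave 11, 9 and 14 falls in this list. Of 21 acute phase genes 4 fell (19%, against 4.52% of all genes), with 0, 2 and 0 called without the pairs in turn. These 4 were Crp, Serpina3n, Hp and Nfkbiz, at -0.57, -0.54, -0.46 and -0.35, and the groups overlapped for each of them. Of the 21 acute phase genes 0 lay wholly lower with MeOPP, against 6.01% of all genes. Alb had a change of -0.01 ± 0.08 (limma adjusted p = 0.963), a value read at the top of the range. Of 19 hepatocyte transcription factors 6 fell (31.6%, against 4.52% of all genes), with a median of -0.25. Beside the receptors above these were Nr2f2 at -0.84, Onecut2 at -0.57 and Prox1 at -0.39, the last not called without pair 1 or pair 2. Falls numbered 4, 4 and 5 without pairs 1, 2 and 3.

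**Figure D3:**
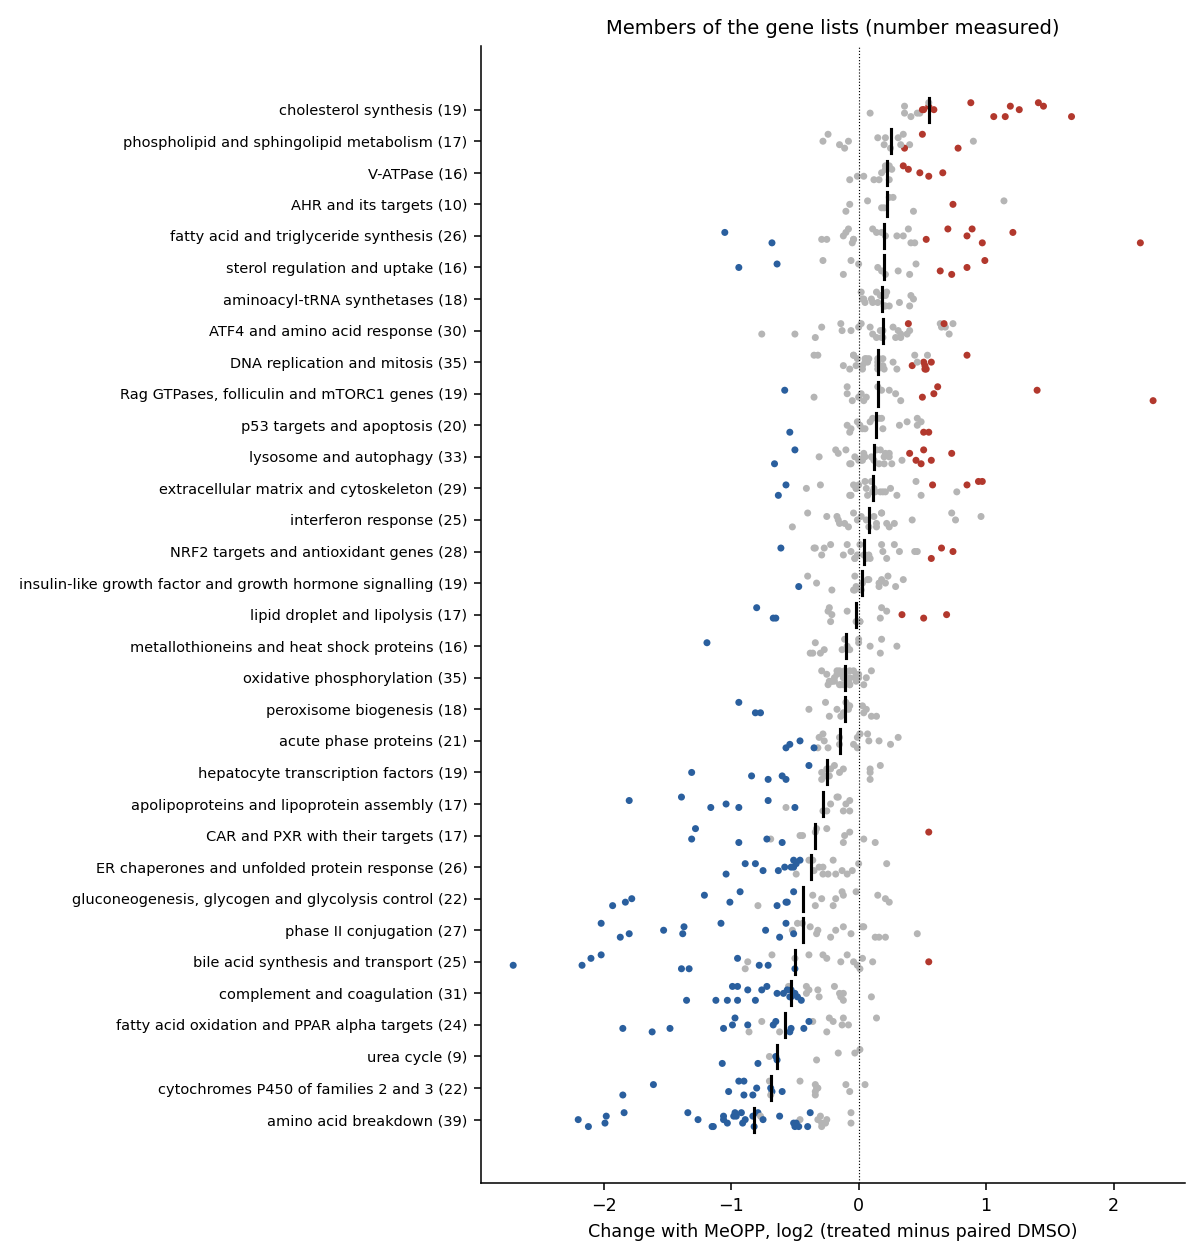
Change with MeOPP of every measured member of the gene lists on the log2 scale (treated minus paired DMSO). Red members rose, blue members fell and grey members did not pass the adjusted p of 0.05, and the black bar is the list median. Cholesterol synthesis lies highest with a median of 0.55 and amino acid breakdown lowest with -0.82, while oxidative phosphorylation sits close to 0 with no called member.

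Several rises were found in the list of Rag and folliculin genes, which tell mTORC1 about nutrients at the lysosome. Gpnmb was itself counted in this list, as a member and as a rise. Of 19 members 5 rose (26.3%, against 3.45% of all genes) and 1 fell (5.26%, near the 4.52% of all genes), with a median of 0.15. Rragd, a Rag GTPase, stood at 4.28, 4.95 and 4.82 in the controls and 6.33, 6.53 and 5.39 with MeOPP. The groups did not overlap, but the gain in pair 3 was smaller than in the others, and Rragd rose by 1.40 ± 0.24 (limma adjusted p = 0.00207). Flcn, the folliculin gene, rose by 0.62 ± 0.13, Rragc, the partner type of GTPase, by 0.59 ± 0.11 and Fnip2, a partner of folliculin, by 0.50 ± 0.11. These 3 were not called without pair 1, and the list then had 2 rises, against 5 without pair 2 and 4 without pair 3. Deptor, an inhibitor bound to mTOR, changed by -0.58 ± 0.10. Of 33 lysosome and autophagy genes 6 rose (18.2%) and 2 fell (6.06%, near the 4.52% of all genes), with a median of 0.12, and Npc2, Cd63 and the cathepsin H gene Ctsh (-0.66, a fall) were called without each pair in turn. Of 16 subunits of the V-ATPase, the proton pump of lysosomes, 5 rose (31.2%, against 3.45% of all genes), with a median of 0.22. These were Atp6v0b by 0.66, Atp6v1f by 0.55, Atp6v1b2 by 0.48, Atp6v1c1 by 0.39 and Atp6v1d by 0.35. Leaving out pairs 1, 2 and 3 gave 2, 2 and 4 rises among the subunits and 2, 3 and 2 among the lysosomal genes.

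The start region of Gpnmb is shown because it held the letters TCACNTGA, of the type read by TFEB and TFE3. It lies at chr4:79340878-79341177 (plus strand, RefSeq window of GRCr8), with the match in capitals, and was chosen after the values were seen.
Gpnmb: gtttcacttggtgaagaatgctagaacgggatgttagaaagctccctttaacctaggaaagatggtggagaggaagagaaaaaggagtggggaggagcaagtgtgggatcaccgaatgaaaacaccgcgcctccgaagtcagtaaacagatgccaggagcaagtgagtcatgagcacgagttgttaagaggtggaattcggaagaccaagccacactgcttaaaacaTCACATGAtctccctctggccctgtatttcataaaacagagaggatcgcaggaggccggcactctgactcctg
The match began 23 bases before the start. The 3 lists held 16 genes that rose, Gpnmb among them. Of these, 11 had a single window and 3 of those held TCACNTGA on either strand (27.3%). The letters were in 1317 of all 33469 windows (3.93%) and in 0 of the 9 windows of cholesterol enzymes. CCAAT stood in 3 of these 11 windows (27.3%). Each motif was counted on its own.

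Among the stress lists, the chaperones of the endoplasmic reticulum had the most called members. Of 26 chaperones and related genes 11 fell (42.3%, against 4.52% of all genes), with a median of -0.38. Ero1b, an oxidase that keeps disulphide formation going, changed by -1.04 ± 0.12, Pdia4, a disulphide isomerase, by -0.89 ± 0.17, Creld2 by -0.81 ± 0.17 and Hsp90b1, the chaperone GRP94, by -0.75 ± 0.17. Pdia4 went from 10.39, 10.84 and 11.00 to 9.56, 10.02 and 9.98, lower on every treated array. Hspa5, the chaperone BiP, had changes of -0.52, -0.47 and -0.47 in the 3 pairs and missed the threshold (limma adjusted p = 0.108). Falls in the list numbered 5, 4 and 4 without pairs 1, 2 and 3. Ddit3, the gene of CHOP, showed no measurable change (SE 0.22; limma adjusted p = 0.999).

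In the amino acid response under ATF4, 2 of 30 genes rose (6.67%, against 3.45% of all genes). These were Slc6a9, a glycine carrier, by 0.67 and Eif4ebp1, a brake on translation, by 0.39. Above 0 lay 22 of the 30 and below it 8, with a median of 0.19 and pair medians of 0.30, 0.32 and 0.06. With MeOPP 9 of the 30 lay wholly higher and 1 wholly lower, where 7.99% and 6.01% of all genes did. Asns, the asparagine synthetase, had a change of 0.65 ± 0.25 (limma adjusted p = 0.156), with 0.91, 0.86 and 0.19 in the 3 pairs. Of 28 antioxidant genes under NRF2 (10.7% higher and 3.57% lower), Nqo1, Pgd and Tkt rose by 0.74, 0.65 and 0.57 and Akr7a3 changed by -0.61. Hmox1, the heme oxygenase, had a change of -0.27 (limma adjusted p = 0.425). Of 20 genes of p53 and apoptosis (10% higher and 5% lower), Phlda3 rose by 0.55 and Mdm2 by 0.51, Sesn1 changed by -0.54, and Cdkn1a, the p21 gene, had a change of 0.19 (limma adjusted p = 0.343). Hspa1a, an inducible HSP70, was the only called member of the 16 metallothionein and heat shock genes (6.25% lower, near the 4.52% of all genes), at -1.19 ± 0.26, with control values from 8.56 to 11.64. Without pairs 1, 2 and 3, rises numbered 0, 0 and 1 under ATF4, 1, 1 and 4 under NRF2 and 1, 0 and 1 under p53. Hspa1a and Akr7a3 were called only without pair 1, and Sesn1 only without pair 3. Limma called 0 of 18 aminoacyl-tRNA synthetases (4 higher at an unadjusted p under 0.05), 0 of 35 subunits of oxidative phosphorylation (6 lower) and 0 of 25 interferon genes (3 higher and 1 lower). All 18 synthetases lay above 0, with a median of 0.19 and pair medians of 0.27, 0.32 and -0.02. Of the 35 subunits 32 lay below 0 and 3 above, with a median of -0.11.

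Of 35 genes of DNA replication and mitosis 7 rose (20%, against 3.45% of all genes), with a median of 0.15. The mean log2 value was under 5 for 19 of the 35. Mcm6, a subunit of the replication helicase, went from 5.10, 5.09 and 5.24 to 6.26, 5.72 and 6.00, clear of all controls, and rose by 0.85 ± 0.12 (limma adjusted p = 0.000287). Mcm4, Mcm2 and Mcm3, of the same helicase, rose by 0.57, 0.53 and 0.52, Bub1, a mitotic checkpoint kinase, by 0.52, Ccnb1, the cyclin B1 gene, by 0.51 and Pcna, the sliding clamp, by 0.42. Of these, Mcm6 was called without each pair in turn, and 2, 3 and 5 of the list were called without pair 1, 2 or 3. Bub1 was dim, at a mean of 3.22, and its groups overlapped. Among 29 matrix and cytoskeleton genes (13.8% higher and 6.9% lower), Anxa5 and Anxa2, membrane-binding annexins, rose by 0.97 and 0.85, Lgals3, the galectin-3 gene, by 0.94 and Tubb5 by 0.58, while Col3a1 and Fn1 changed by -0.63 and -0.57. Anxa5 and Lgals3 overlapped between the groups, and the list had 2, 1 and 4 rises and 1, 1 and 2 falls without pairs 1, 2 and 3. Insr, the insulin receptor gene, fell by 0.47 as the single called member of 19 genes of growth factor signalling (5.26% lower, near the 4.52% of all genes), and was not called without pair 1 or pair 3.

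**Figure D4:**
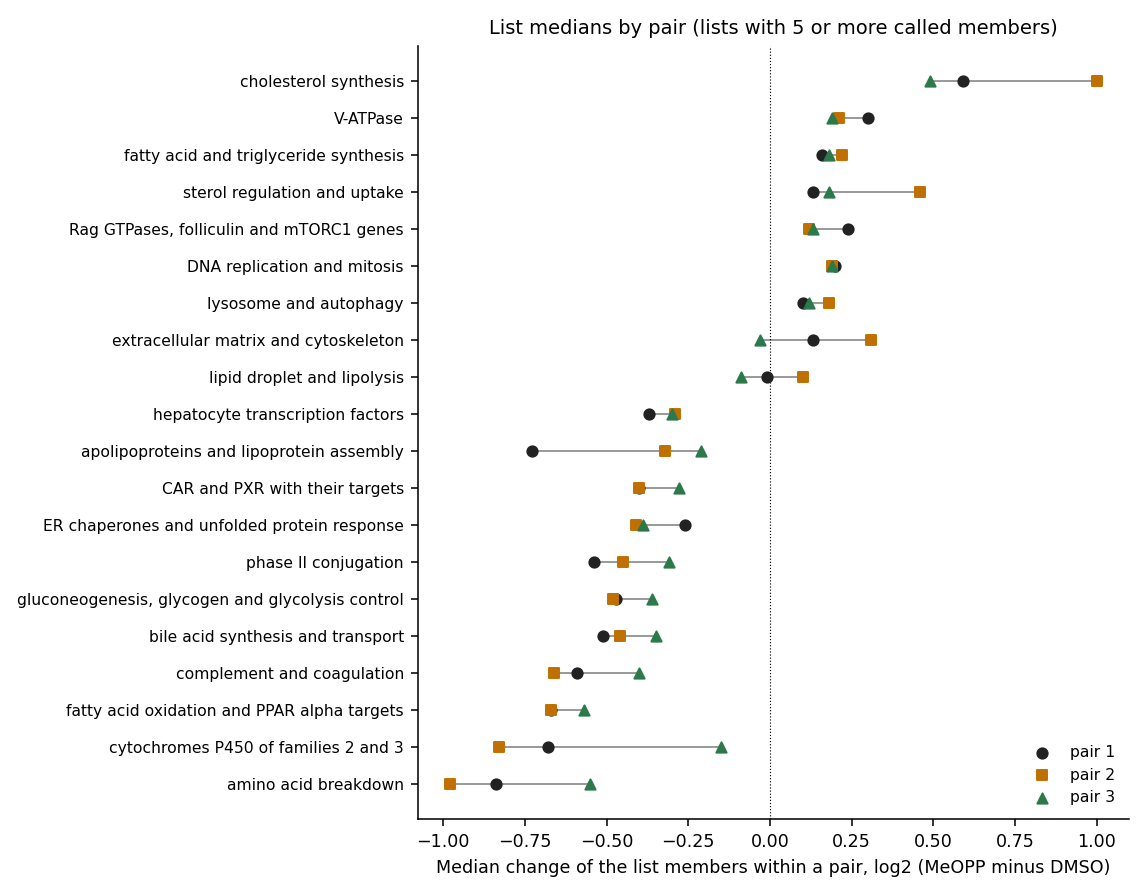
Median change of the list members within each pair, MeOPP minus DMSO on the log2 scale, for lists with 5 or more called members. Circles, squares and triangles are pairs 1, 2 and 3 and the grey line spans them. Cholesterol synthesis runs from 0.49 to 1.00, amino acid breakdown from -0.98 to -0.55, and the P450 list from -0.83 to -0.15.

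Beside the other drugs of the series, MeOPP gave no probe set that differed after adjustment. The doses differed: 522 µM MeOPP stood beside 625 µM BZP, 35 µM TFMPP and 467 µM MDBP, each named as an EC20. At these doses limma called 2867 probe sets with BZP (9.24%), 551 with TFMPP (1.78%) and 2167 with MDBP (6.98%). MeOPP minus the mean of the other 3 drugs gave 0 calls in limma (1776 probe sets at an unadjusted p under 0.05, smallest adjusted p = 0.617), with a median SE of 0.13. MeOPP minus TFMPP gave 0 calls (1721 at an unadjusted p under 0.05, smallest adjusted p = 0.7), with a median SE of 0.16. A p that misses the threshold does not show that the drugs act alike. All 30 of the largest MeOPP changes had the same sign with each of BZP, TFMPP and MDBP. They were picked for their MeOPP change, and no share over all genes stands beside this count. Over 14217 genes the MeOPP change correlated at 0.76, 0.73 and 0.80 with those of BZP, TFMPP and MDBP. The control arrays are separate, but some of them lie close to each other. MeOPP control 1 correlated at 0.9957 to 0.9963 with the first controls of the other drugs, and MeOPP control 2 at 0.9962, 0.9960 and 0.9916 with the second controls of TFMPP, BZP and MDBP. MeOPP control 3 correlated at 0.9969 with the third control of TFMPP, but at 0.9787 and 0.9728 with the third controls of MDBP and BZP, its lowest values. Between MeOPP controls the range was 0.9841 to 0.9890. The model held no term for this closeness, so the contrasts between drugs and their intervals took all pairs as separate.

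Values side by side show where MeOPP stood. Gpnmb rose by 2.31 with MeOPP, 2.68 with BZP, 1.59 with TFMPP and 2.64 with MDBP. Slc10a1 changed by -2.71, -2.86, -1.64 and -2.98 in the same order. The cholesterol list had medians of 0.55 with MeOPP, 0.74 with BZP, 0.76 with TFMPP and 0.65 with MDBP. MeOPP and TFMPP are phenylpiperazines that carry a methoxy and a trifluoromethyl group, and their doses differed. The difference MeOPP minus TFMPP was 0.71 for Gpnmb (95% interval 0.20 to 1.23, unadjusted), -1.07 for Slc10a1 (-1.79 to -0.35), -0.27 for Msmo1 (-0.66 to 0.12) and 0.23 for Fads1 (-0.52 to 0.97). None of these 4 passed after adjustment over all probe sets.

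A few of the genes with the lowest unadjusted p for MeOPP against the other 3 drugs are given, picked after their values were seen. Epm2aip1 changed by -0.68 ± 0.11 with MeOPP and by 0.10, -0.06 and -0.13 with BZP, TFMPP and MDBP. The difference was -0.65 (95% interval -0.91 to -0.39, unadjusted; limma adjusted p = 0.617), read from the brightest of its 3 probe sets, the only 1 called with MeOPP. Sox18, an endothelial transcription factor, changed by 0.57 with MeOPP and by -0.18, 0.15 and -0.07 with the others, a difference of 0.60 (0.36 to 0.85; limma adjusted p = 0.617). Arg1 changed by -1.07 with MeOPP and by -0.49, -0.34 and -0.49 with the others, a difference of -0.63 (-0.94 to -0.33; limma adjusted p = 0.624). For none of these 3 genes was a difference called.

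**Figure D5:**
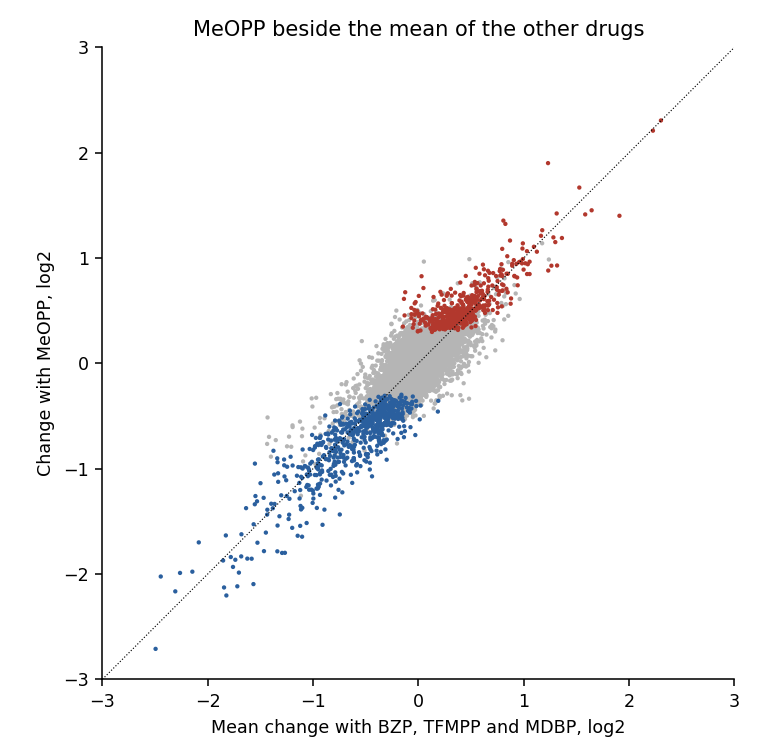
Change with MeOPP (vertical) against the mean change with BZP, TFMPP and MDBP (horizontal) for 14217 genes on the log2 scale, each treated minus paired DMSO. Red genes rose and blue genes fell with MeOPP, grey genes did not pass, and the dotted line marks equal change. Gpnmb at 2.31 and Slc10a1 at -2.71 on the vertical axis lie at the ends, and the doses of the drugs differed.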

How the data were processed

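The deposited series table holds log2 values of Affymetrix rat arrays; per the submitters' processing notes the authors used RMA, whose version was not given in the sources. RMA corrects background, applies quantile normalization and summarises probes. Per the labels' protocols, 100 ng of QIAzol-extracted RNA was labelled. Medians of the MeOPP and control arrays lay between 4.456 and 4.519, so values were used as deposited. Arrays carry no read depth, and precision depends on their number. The 57 control probe sets among 31099 were not tested. The platform table gave 1 symbol for 20826 of 31042 tested probe sets, several for 436 and none for 9780 (367 of the 1865 changed probe sets). No symbol was updated through RefSeq (GRCr8), and 68 were kept as given. A gene is read from its brightest probe set by mean; 4525 of 14217 genes had several, and in 1 gene probe sets were called in opposite directions.

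All 24 arrays entered a model in limma 3.58.1 (R 4.3.3) that had a term for each of 12 pairs and 4 drugs, 8 residual degrees of freedom and 7.66 from the prior. Two-sided moderated tests were adjusted by Benjamini-Hochberg over 31042 probe sets, with an adjusted p under 0.05 as the threshold. Errors are the SE of the model. The pairing comes from the control titles; deviations of paired arrays from their group means correlated at 0.627 to 0.684 for MeOPP and at 0.612 to 0.802 over the 12 pairs. The fit was tested on simulated data.

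The members and the 38 gene lists (766 of 872 listed genes with a probe set of their own) were chosen with earlier results of these data known. The rule for named genes took the top 15 in each direction, up to 4 called members of each list in each direction, all moving the same way in the 3 pairs, and a fixed set of 14 genes of which 11 had a probe set; other genes given were chosen after their values were seen. List counts compare with all genes and are not tests. Promoter windows are from RefSeq. Plots used matplotlib 3.10.9 (Python 3.11.15). Alternatives left out the pair terms or each pair, used only the 6 arrays, joined all DMSO arrays without pair terms, kept means of at least 5, repeated quantile normalization, used a robust trended prior or array weights, or averaged probe sets.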

Additional observations from a re-analysis of the deposited data

How the results depend on the processing

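Most calls needed the pair terms. With no replicate block, so without the pairing, limma called 12 probe sets in place of 1865, and with all 12 DMSO arrays as 1 control, which also dropped the pair terms, 796. Leaving out each pair in turn gave 819 to 1226. At least 1 on the log2 scale, a limit chosen after seeing the data, left 210 (31 higher, 179 lower). The other settings gave 1402 (only the 6 arrays) to 2010 (means of at least 5). No named gene reversed. Of 130 named called genes 3 were also called without the pair terms, 62 with joined controls, 82, 88 and 106 without pairs 1, 2 and 3, 74 without each of the 3 in turn, and 115 to 130 under the remaining settings. Differences from other drugs gave 0 calls under every alternative run, with 581 to 2194 probe sets at an unadjusted p under 0.05 for the mean of the other drugs and 454 to 2134 for TFMPP. Without the pair terms no cholesterol enzyme of the list was called, but 8 were with joined controls.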
